A study of Mus musculus with 2 samples.

Results

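Splicing regulator genes encode proteins that bind pre-mRNA and set which exons and introns a mature transcript keeps. The 44 genes described here were chosen by symbol from families known to do this, and all 44 were found among the 43346 Ensembl genes listed. The tissue was whole heart, the embryos were of the C57BL/6N substrain B6NCrl, their age was 13.5 days, and total RNA was read in 2 libraries. The libraries were biological replicates 1 and 2 of 1 group, each from pooled male and female embryos, so there was no treated, mutant or control group. Levels are in TPM, the number of transcripts in 1000000, a measure corrected for transcript length and depth that can be compared between genes. Values are given for replicates 1 and 2, or as mean ± SD (n = 2). In bulk tissue, fewer cells of a type and less RNA per cell cannot be told apart.

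As background, general splicing factors work in nearly all cells. SR proteins, rich in arginine and serine, mostly promote exon inclusion, and hnRNP proteins often repress it. Other regulators are enriched in a tissue: RBM20, RBM24, RBFOX, CELF, MBNL and QKI proteins are known from striated muscle, where they shape transcripts of sarcomere and ion channel genes, and NOVA and ESRP proteins act in neurons and epithelia. Many splicing factors limit their own levels through poison exons, which bring an early stop codon and send the transcript to nonsense-mediated decay (NMD), or through retained introns.

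By these known roles, the members fell into 11 muscle regulators, 23 general ones, 8 neural ones and 2 epithelial ones. The estimated reads summed to 36733400 in replicate 1 and 36060765 in replicate 2. Spike-in RNA took 11.1% and 5.04% of all TPM in replicates 1 and 2, and the median log2 ratio of TPM between replicates 2 and 1 over protein-coding genes was 0.14, so part of each SD below is a shift shared by most genes. The defining cardiomyocyte markers Actc1, Tnnt2, Myh7, Myh6, Nkx2-5 and Ryr2 were all detected (6 of 6), at a median of 1193 TPM. Liver markers summed to 96 TPM in replicate 1 and 489 TPM in replicate 2, and their part in the values below was not tested.

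The sequences shown first come from stop-codon exons of NMD-class transcripts and from alternative coding exons. In a pair of transcripts of Srsf11, which encodes an SR-related splicing factor, and in a transcript each of Srsf6 and Srsf1, which encode SR proteins, the exon of the stop codon is given from its start to that codon, in capitals. They show where an NMD-class transcript ends its reading frame. The exons of Srsf11 overlap no coding exon of the gene's protein-coding transcripts, whereas those of Srsf6 and Srsf1 overlap a coding exon of another transcript. The last 3 sequences are alternative coding exons of Mbnl1 and Ptbp1, in lower case throughout. All were read from GENCODE M21 transcripts, are written 5′ to 3′ and have GRCm38 (mm10) coordinates.
Srsf11-206, chr3:158024209-158024231, minus strand: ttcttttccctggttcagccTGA
Srsf11-212, chr3:158023310-158023359, minus strand: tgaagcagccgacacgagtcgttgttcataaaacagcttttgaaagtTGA
Srsf6-201, chr2:162932815-162932966, plus strand: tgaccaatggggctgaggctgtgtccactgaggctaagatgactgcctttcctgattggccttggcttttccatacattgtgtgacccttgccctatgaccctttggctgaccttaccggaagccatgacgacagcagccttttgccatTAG
Srsf1-204, chr11:88049977-88050015, plus strand: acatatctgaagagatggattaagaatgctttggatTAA
Mbnl1 54-nt exon, chr3:60614683-60614736, plus strand: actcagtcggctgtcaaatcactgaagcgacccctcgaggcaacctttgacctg
Mbnl1 36-nt exon, chr3:60621423-60621458, plus strand: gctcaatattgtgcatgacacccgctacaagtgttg
Ptbp1 78-nt exon, chr10:79860117-79860194, plus strand: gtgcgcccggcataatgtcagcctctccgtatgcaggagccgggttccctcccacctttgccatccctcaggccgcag

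All muscle and general regulators were expressed, and general factors were the more abundant. A gene was called detected at 1 TPM or more in both libraries. By this rule 38 of the 44 members were detected (86.4%), against 57.3% of 21474 protein-coding genes. The median level was 53.1 TPM over the members and 3.07 TPM over protein-coding genes. All 11 muscle regulators and all 23 general regulators were detected, against 3 of 8 neural and 1 of 2 epithelial regulators. The classes were set with earlier results of these data known, so differences between them only describe these members. The median level of muscle regulators was 25.9 TPM in replicate 1 and 30.3 TPM in replicate 2, against 127 and 134 TPM for general regulators. The general median was thus 4.90 times the muscle median in replicate 1 and 4.42 times in replicate 2. These gene levels include transcripts not classed as protein coding, which are described below. By the mean TPM of protein-coding transcripts alone the gap was smaller. The median general regulator was then Hnrnph1 at 88.5 TPM, and the median muscle regulator Rbfox2 at 27.2 TPM. Summed over all transcripts, muscle regulators held 416 ± 27.8 TPM and general regulators 4085 ± 292 TPM (SD, n = 2). None of the muscle regulators reached 100 TPM in both libraries, and 15 general regulators did. The levels of the classes nevertheless overlapped, since Rbm38 and Celf1 both lay above the general factors Khdrbs1, Srsf4, Tra2a, Ptbp3 and Tial1. The 6 members below the detection level were Rbfox3, Celf5, Celf6, Nova1 and Nova2 of the neural class and Esrp1 of the epithelial class.

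**Figure D1:**
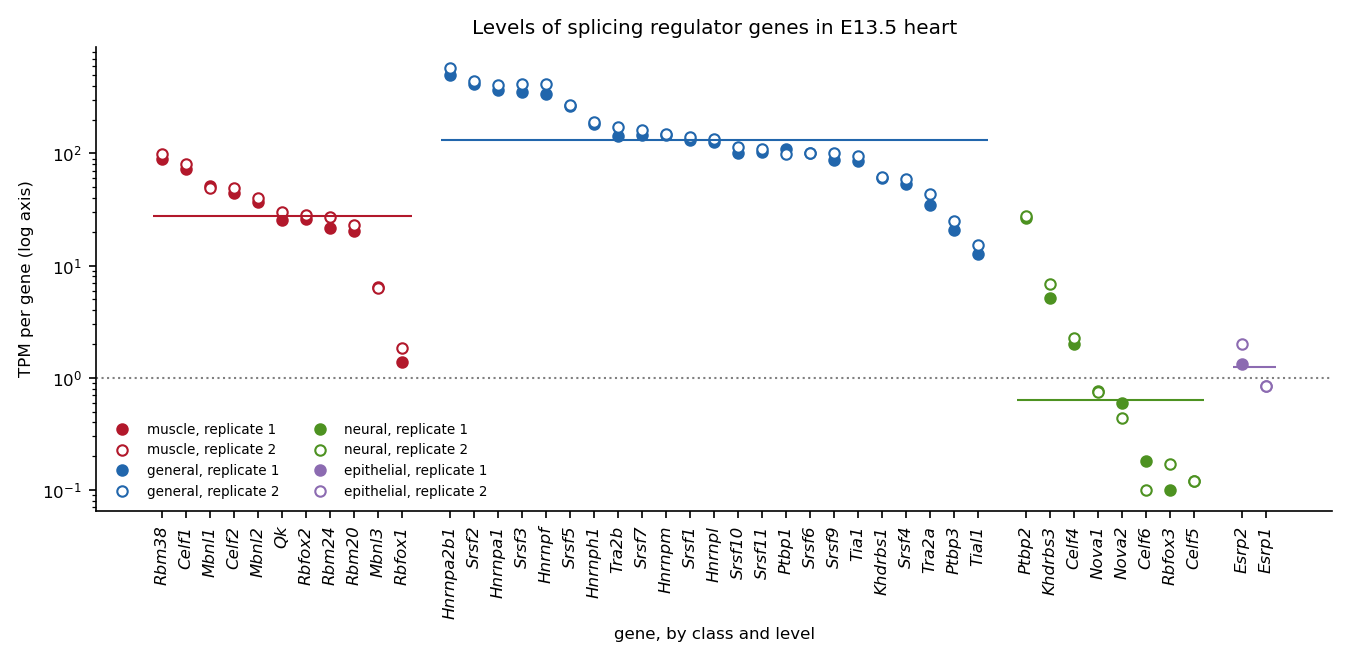
TPM of each of the 44 members on a log axis, with filled points for replicate 1 and open points for replicate 2. Horizontal lines are class medians and the dotted line marks 1 TPM: all muscle and general regulators lie above it, and 5 of 8 neural ones below it. Classes were set with earlier results of these data known.

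Among the muscle regulators, the RBM proteins with a known role in the heart differed in level. Rbm38 (chr2:173020498-173034734, plus strand), whose product binds RNA in muscle and blood cell differentiation, had 90.1 and 98.8 TPM, the highest values of the class. Rbm24 (chr13:46418434-46431095, plus strand), needed for heart development and sarcomere formation, had 21.4 and 26.9 TPM. Rbm20 (chr19:53677306-53867080, plus strand), the repressor of titin exons that is mutated in dilated cardiomyopathy, had 20.3 and 23.1 TPM. Both libraries gave the order Rbm38, Rbm24, Rbm20. Erythroid markers were all detected (6 of 6) and summed to 272 TPM in replicate 1 and 205 TPM in replicate 2. Their part in the level of Rbm38 was not tested. A pair of genes was called apart when the authors' credibility intervals of TPM did not overlap in either library and the direction was the same; 26 pairs were compared. Rbm38 was 3.93-fold above its close relative Rbm24, whereas Rbm24 and Rbm20 were not called apart (log2 ratio 0.15 ± 0.10, SD, n = 2).

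The CELF and MBNL families, which are known to act against each other on exons that switch during heart development, were led by their ubiquitous members. Celf1 had 72.8 and 80.8 TPM and Celf2 44.7 and 49.6 TPM. The neural relatives were low: Celf4 had 2.02 and 2.25 TPM, and Celf5 and Celf6 stayed under 0.2 TPM. Their posterior means were higher, at 0.45 and 0.49 TPM for Celf5 and 0.45 and 0.36 TPM for Celf6, and likewise below 1 TPM. Mbnl1 (chr3:60472830-60629750, plus strand) had 50.9 and 49.2 TPM, Mbnl2 36.9 and 40.3 TPM, and Mbnl3, linked to muscle regeneration, 6.41 and 6.33 TPM. Celf1 was called above Mbnl1, by 1.53-fold (log2 0.61 ± 0.14), Mbnl1 above Mbnl2, by 1.30-fold, and Mbnl2 above Mbnl3, by 6.06-fold. Celf1 was 1.63-fold above Celf2, and Celf2 22.1-fold above Celf4.

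Rbfox2 led the RBFOX family, whose proteins bind a GCATG motif beside alternative exons. Rbfox2 had 25.9 and 28.4 TPM, against 1.38 and 1.84 TPM for Rbfox1, the form known from adult heart and brain, a 17.1-fold difference. Rbfox3, the neuronal form also known as NeuN, had 0.10 and 0.17 TPM. Both values lay below their own intervals, and the deposited posterior means of Rbfox3 were 0.61 and 0.67 TPM. By posterior means the log2 ratio of Rbfox2 over Rbfox3 was 5.38 in both libraries, against 8.02 and 7.39 by TPM, and the pair was called apart either way. Qk (chr17:10202601-10319854, minus strand), the STAR-family gene of the QKI proteins that act in vessels, muscle and glia, had 25.4 and 30.3 TPM. Khdrbs1, which encodes the STAR protein SAM68, had 60.2 and 61.9 TPM and was 2.20-fold above Qk. Its relative Khdrbs3, best known from brain, had 5.17 and 6.80 TPM, 10.3-fold below Khdrbs1.

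The PTBP proteins repress exons by binding pyrimidine-rich sequence, and Ptbp1 gives way to Ptbp2 as neurons form. Ptbp1 (chr10:79854427-79864771, plus strand) had 109.5 and 98.8 TPM, Ptbp2 26.7 and 27.9 TPM, and Ptbp3 20.8 and 25.1 TPM. Ptbp1 was called above Ptbp2 by 3.81-fold (log2 1.93 ± 0.15) and above Ptbp3 by 4.56-fold (log2 2.19 ± 0.30). Ptbp2 was the highest of the 8 neural regulators, and the only one above 10 TPM. Nova1 and Nova2, neuronal regulators, had 0.77 and 0.74 TPM and 0.60 and 0.44 TPM. The epithelial regulators Esrp1 and Esrp2 had 0.85 in both libraries, and 1.32 and 1.99 TPM. The pairs Nova2 with Nova1, Esrp2 with Esrp1 and Celf6 with Celf5 were not called apart. Of 12 neuron markers, 6 were detected; they summed to 38.8 TPM in replicate 1 and 39.7 TPM in replicate 2, with none at 0. Of 9 epithelium markers, 7 were detected, with sums of 132 and 135 TPM and none at 0. Their part in the neural and epithelial levels was not tested.

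General factors held the top of the range. Hnrnpa2b1 (chr6:51460932-51469894, minus strand), an RNA-binding hnRNP, led all members with 497 and 576 TPM. Srsf2 had 412 and 445 TPM, Hnrnpa1 370.0 and 404 TPM, Srsf3 354 and 413 TPM, and Hnrnpf 341 and 414 TPM. Srsf2 and Srsf3 encode SR proteins, and the hnRNP proteins A1 and F bind exonic silencers and G-rich sequence. The other HNRNP members lay lower, with Hnrnph1 at 187 ± 5.9, Hnrnpm at 147 ± 3.4 and Hnrnpl at 130.5 ± 4.9 TPM. Hnrnpa2b1 was called above Hnrnpa1 by 1.38-fold, and Hnrnpf above Hnrnph1 by 2.01-fold. For Hnrnpa1 and Hnrnpa2b1 the deposited TPM lay above the upper bound of its own interval in both libraries, and for Rbfox3 and Celf5 below the lower bound. The deposited posterior means were 363 and 395 TPM for Hnrnpa1 and 487 and 564 TPM for Hnrnpa2b1, and those of Rbfox3 and Celf5 are given above.

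All 10 SR genes were detected, at 56.1 to 429 TPM. Srsf2 was 3.15-fold above Srsf1, which had 131 and 141 TPM, and Srsf3 was 2.50-fold above its near relative Srsf7, which had 145 and 161 TPM. Srsf5 had 263 and 268 TPM and was 2.63-fold above Srsf6, with 101 TPM in both. Srsf4, the lowest, had 53.2 and 59.0 TPM, and Srsf6 was 1.80-fold above it. Srsf9 averaged 93.9 ± 10.0 TPM, Srsf10 108 ± 9.9 and Srsf11 105 ± 4.5 TPM, and Srsf11 and Srsf10 were not called apart. Of the TRA2 pair, which bind GAA-rich enhancers, Tra2b had 143 and 172 TPM and Tra2a 34.6 and 43.3 TPM, a 4.05-fold difference. Tia1 and Tial1 encode U-rich binding proteins that also form stress granules. Tia1 had 85.9 and 94.4 TPM and lay 6.47-fold above Tial1, with 12.8 and 15.2 TPM. In all, 21 of the 26 pairs were called apart, 17 with the first-named gene higher and 4 with it lower. A difference as small as 1.13-fold, that of Hnrnpm over Hnrnpl, was called, and pairs of other genes were not compared.

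**Figure D2:**
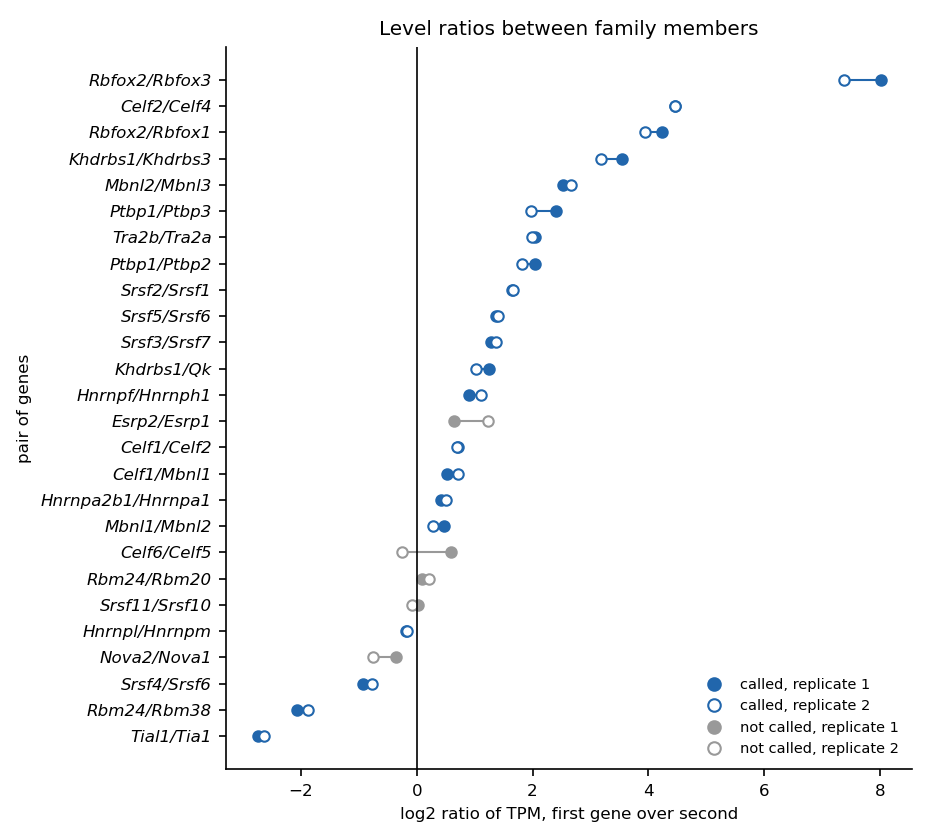
Log2 ratio of TPM between the genes of each of 26 pairs, first gene over second, in replicate 1 (filled) and replicate 2 (open). The 21 called pairs are in blue and the 5 others in grey; Rbfox2/Rbfox3 lies farthest right and Tial1/Tia1 farthest left.

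The wider splicing machinery was expressed too. Of 82 other genes on a list of kinases of SR proteins, core spliceosome parts, further RNA-binding regulators and NMD factors, 81 were detected, with a median of 52.7 TPM. The kinases had a median of 36.4 TPM, and the highest were Clk1 at 98.8 ± 10.2, the muscle kinase Srpk3 at 65.0 ± 7.9 and Clk4 at 58.0 ± 8.5 TPM, with Clk2 lowest at 13.7 ± 0.8 TPM. The core spliceosome had a median of 73.3 TPM, led by the small nuclear RNA-binding proteins Snrpe, Snrpb and Snrpg at 389 ± 51.4, 352 ± 29.8 and 326 ± 25.1 TPM, and Prpf4 was lowest at 10.2 ± 1.6 TPM. Among the other regulators, Hnrnpk, Ybx1 and Ewsr1 led with 823 ± 89, 431 ± 17 and 354 ± 22 TPM. Srrm4, a neuronal microexon regulator, was the gene below 1 TPM, with 0.64 and 0.83 TPM. NMD factors were lower, with a median of 10.7 TPM, from Smg5 at 35.8 ± 1.9 and Upf3a at 24.1 ± 0.3 to Upf2 at 4.37 ± 0.01 TPM. Clk1 held 82.4% and 81.9% of its TPM in non-coding transcripts, as defined next.

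Transcript shares were described for the 33 detected members with at least 2 listed transcripts; 5 detected members had 1. Each of the 341 listed transcripts of the members was given its GENCODE M21 class, which 339 matched: 175 protein coding, 74 retained intron, 34 NMD and 56 processed transcripts with no assigned reading frame. The last 3 classes are called non-coding here. For 17 of 33 members (51.5%), both libraries gave the same leading transcript with over 50% of the gene, against 71.5% of 9054 protein-coding genes under the same filter. The members had a median of 7 listed transcripts, against 5 for those genes, and the part of this difference in the count was not tested. The transcript with the highest mean share was non-coding in 4 of 33 members (12.1%), against 8.64% of those genes. They were Tia1-213, Srsf3-205 and Srsf5-212 of the retained-intron class and Qk-202 of the NMD class. The reading frame of Qk-202 is also that of a protein-coding transcript, as described below. Rbm38-201 held 92.4% and 91.1% of Rbm38, Hnrnpa1-202 91.1% and 92.4% of Hnrnpa1, and Khdrbs1-201 86.5% and 88.1% of Khdrbs1. At the other end, the leading Celf2-221 held 24.8% and 30.3% of Celf2, which has 28 listed transcripts.

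A share of at least 20% in both libraries was found for 14 of 33 members (42.4%), against 27.2% of the protein-coding genes. The median share was 14.8% over the members and 6.68% over those genes. Of the other splicing and NMD genes described above, 28 of 65 under the same filter passed 20%, with a median of 11.4%. Among them, 4 of 5 kinases of SR proteins passed. Over the 10 muscle regulators with shares the median was 9.52%, and 2 of them, Qk and Mbnl1, passed 20%. Qk passed through the class of Qk-202 alone, whose reading frame is also that of a protein-coding transcript, as described below. Over the 21 general regulators the median was 26.5%, and 11 passed. These general regulators had a median of 8 listed transcripts and the muscle regulators 5.5, and the part of this in the shares was not tested. Of 9 SR genes 7 passed, with a family median of 42.2%. Of 6 HNRNP genes 2 passed, Hnrnph1 and Hnrnpl, and their family median of 1.46% includes 3 genes with no non-coding transcript listed. As a share of estimated reads, which does not correct for transcript length, 9 of 33 members passed 20% (27.3%), against 15.5% of the protein-coding genes. By reads the median was 3.50% over muscle regulators, of which 1, Qk, passed through Qk-202, and 9.20% over general regulators, of which 8 passed. Of the SR genes, 5 passed by reads.

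**Figure D3:**
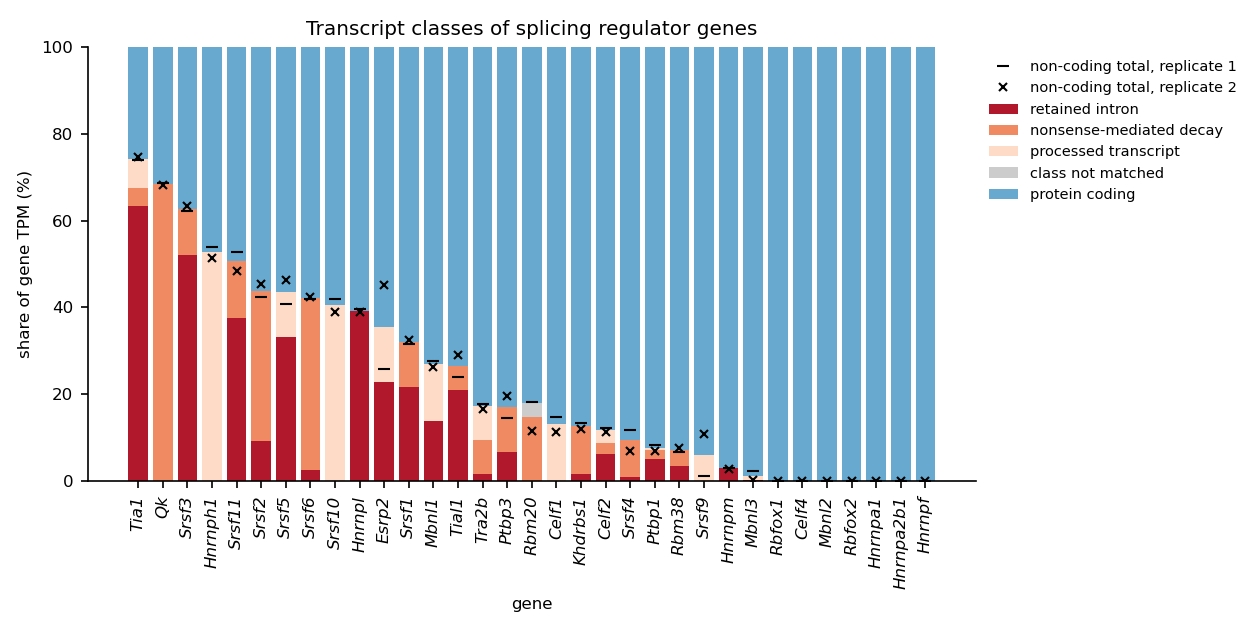
Share of gene TPM by transcript class for the 33 members with at least 2 listed transcripts, as stacked bars of the mean of 2 libraries, with the non-coding total of each replicate as a dash or a cross. Tia1, Qk, Srsf3, Hnrnph1 and Srsf11 lead with means above 50%.

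Retained-intron transcripts led in several general factors. Tia1 (chr6:86404219-86433405, plus strand) held 73.9% and 74.7% of its TPM in non-coding transcripts, and its retained-intron transcripts alone 61.0% and 65.6%, spread over forms such as Tia1-213 with 17.2% and 18.1%. In Srsf3 (chr17:29032628-29043373, plus strand) the non-coding share was 62.2% and 63.4%. Srsf3-205, a retained-intron form, held 43.6% and 46.3% of Srsf3 by TPM and 19.9% and 21.6% by reads. Its model is 910 nt long in the files and 2110 nt in M21, so its class may not fit the form that was quantified. In Hnrnpl the retained-intron share was 39.7% and 38.9%, and in Srsf11 38.8% and 36.5%. Srsf5 held 31.4% and 34.9% in this class, and the retained-intron Srsf5-212 had the highest mean share of the gene, with 30.7% and 34.3%. Srsf1 had 20.8% and 22.3%, Tial1 18.7% and 23.1%, and Mbnl1 12.4% and 15.3%.

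NMD-class transcripts held at least 10% of the TPM in both libraries in 7 of 33 members (21.2%), against 6.9% of the protein-coding genes. These were Qk, Srsf6, Srsf2, Rbm20, Srsf11, Khdrbs1 and Srsf1. By reads, the NMD-class share was lower in each. It was 60.1% and 59.6% in Qk, 23.2% and 23.6% in Srsf6, and 13.0% and 14.2% in Srsf2. Rbm20 had 15.7% and 9.86%, and Khdrbs1 8.49% and 7.61%. Srsf11 had 4.85% and 4.29%, and Srsf1 3.32% and 3.23%. Srsf3, at 11.9% and 10.4%, was above 10% in both libraries by reads and not by TPM. All genes were not counted at 10% of reads. The shares that follow are of TPM. Qk-202 held 68.6% and 68.2% of Qk, and the other listed transcript, the protein-coding Qk-201, had 7.95 and 9.63 TPM. Srsf6-201, which uses the 268-nt exon whose first 152 nt are printed above, held 39.6% and 39.9% of Srsf6. Srsf2-204 held 32.9% and 35.1% of Srsf2, and Rbm20-201 18.2% and 11.4% of Rbm20. Srsf11-206 and Srsf11-212, with the 23-nt and 50-nt stretches printed above, held 9.38% and 8.81%, and 3.86% and 3.14%, of Srsf11. Srsf1-204, which ends after the 39 nt printed above, held 10.5% and 10.0% of Srsf1, and Khdrbs1-202 11.8% and 10.6% of Khdrbs1. Exons of the stop codon that overlap no coding exon were found in 14 of the 34 NMD-class transcripts. In 5 members such a transcript held at least 1% in both libraries. Besides Srsf11 these were Srsf3, with Srsf3-201 at 11.6% and 9.90%, Tra2b, with Tra2b-206 at 8.06% and 7.82%, Srsf4, with Srsf4-204 at 6.43% and 3.86%, and Tial1, with Tial1-204 at 4.81% and 3.27%. Srsf3-201 and Tra2b-206 have another length in M21 than in the files. Genes other than the members were not searched for stop-codon exons outside coding exons, so these counts have no background beside them.

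The NMD class did not always mark an early stop codon. Of the 6 single transcripts of this class that held at least 10% in both libraries, 4 use the stop codon of a transcript classed as protein coding. Khdrbs1-202 has the same coding length as Khdrbs1-201, 1329 nt, and the same stop codon. Srsf2-204 ends at the stop codon of Srsf2-201, with an annotated coding part of 56 nt against 663 nt. That stop codon lies in a 66-nt exon at an end of the 620-nt model of Srsf2-204, so the 56 nt need not be a whole reading frame. The 957-nt reading frame and stop codon of Qk-202 are those of the protein-coding Qk-206, which is in M21 and not among the quantified transcripts, and the model of Qk-202 is 4658 nt in the files and 5832 nt in M21. Srsf6-201 shares its stop codon with Srsf6-202, which held 0.18% and 0.56%. Both have a coding length of 405 nt, against 1017 nt for the longest of the gene. The stop codon of Srsf6-201 is thus early although it is shared. Rbm20-201 and Srsf1-204 share theirs with no protein-coding transcript.

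Transcripts with no assigned reading frame made up the rest. They held 53.9% and 51.5% of Hnrnph1, where Hnrnph1-212, 816 nt long, had 31.0% and 27.5%, and 41.9% and 39.0% of Srsf10. By reads, the non-coding share of Srsf10 was 10.9% and 9.65%, and that of Srsf1 8.60% and 9.03%, against 31.6% and 32.5% by TPM. The share of Srsf5 was the exception in direction among those above 20%, at 50.9% and 56.3% by reads and 40.7% and 46.3% by TPM. Esrp2 had 25.8% and 45.2% by TPM, from a gene level under 2 TPM, and 5.44% and 6.33% by reads. The TPM of protein-coding transcripts alone was 22.4 and 23.9 for Tia1, 134 and 151 for Srsf3, and 84.3 and 92.7 for Hnrnph1. On this measure Tia1 ranked 29th of the 44 members, against 19th by gene TPM, and Srsf3 8th against 4th.

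**Figure D4:**
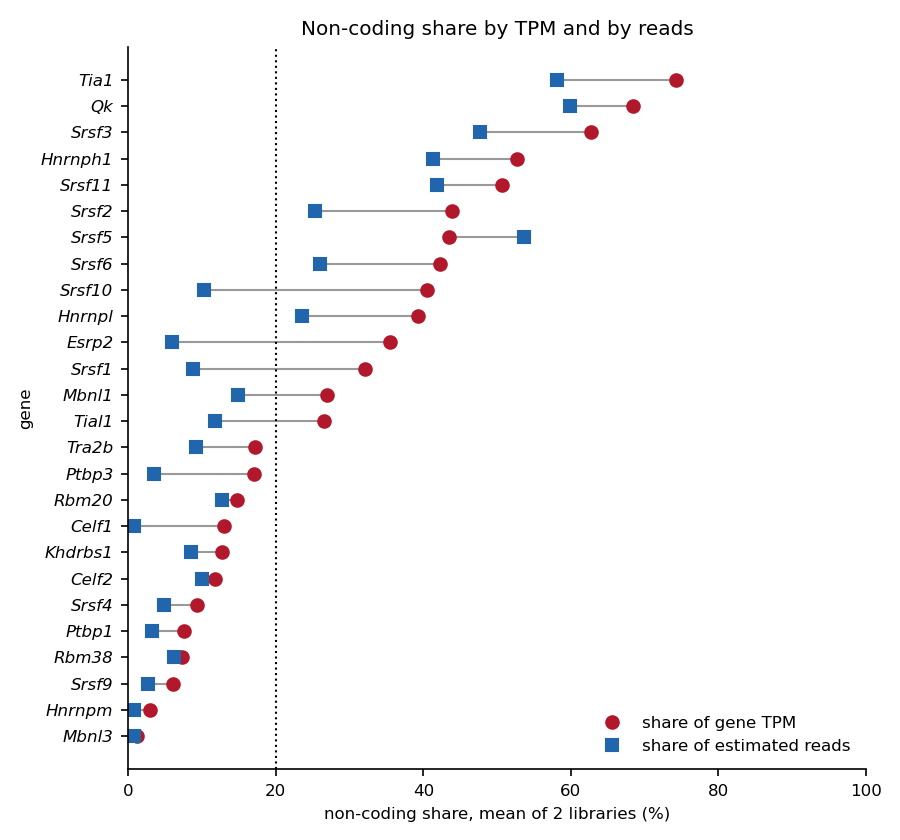
Non-coding share of each member with a share above 0, as mean of 2 libraries, by gene TPM (red circles) and by estimated reads (blue squares); the dotted line marks 20%. The share by reads is the lower one in each member but Srsf5, and Srsf10, Esrp2, Srsf1, Mbnl1 and Tial1 cross the line.

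At the low end, no non-coding transcript is listed for 14 members, among them Hnrnpa1, Hnrnpa2b1, Hnrnpf, Mbnl2, Rbfox2 and Celf4. Hnrnpm held 2.95% and 2.90%, Mbnl3 2.34% and 0.16%, Ptbp1 8.33% and 6.84%, Rbm38 6.79% and 7.70%, Celf1 14.8% and 11.3%, and Celf2 12.2% and 11.4%. Srsf9 had 1.27% and 10.8%, and Srsf4 11.7% and 7.04%. Tra2b had 17.7% and 16.7%, and Ptbp3 14.5% and 19.7%. Srsf7, Tra2a, Rbm24, Ptbp2, Khdrbs3 and Nova1 have 1 listed transcript each, so no share could be read for them.

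Between protein-coding transcripts, 14 exons that some keep and others skip between the same neighbours could be followed in 7 members with models of equal length in both annotations. In 6 of them, from 4 members, inclusion lay between 10% and 90% of TPM in both libraries. The Mbnl1 54-nt exon, known to favour nuclear localisation of the protein, was in 68.8% and 69.2% of the TPM that could be assigned. The 36-nt exon of Mbnl1, in its carboxy-terminal part, was in 41.4% and 43.2%, and the 95-nt exon after it in 79.3% and 80.5%, each pooled over 2 contexts of neighbouring exons. By context, inclusion of the 36-nt exon was 35.4% and 41.2% or 64.4% and 51.3%, and that of the 95-nt exon 87.5% and 83.3% or 67.8% and 76.8%. The Ptbp1 78-nt exon, which lengthens the linker between RNA-binding domains, was in 37.3% and 33.2%. A 144-nt exon of Celf2 was in 71.0% and 76.0%. The 34-nt exon of Ptbp3 was in 24.2% and 10.2%, the widest gap between replicates among the 6.

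**Figure D5:**
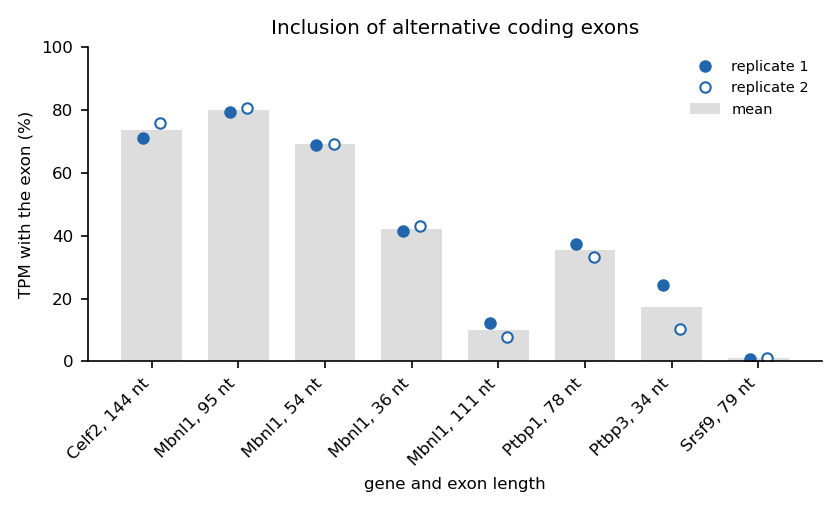
Inclusion of alternative coding exons, named by gene and length, as the percent of assignable TPM in transcripts with the exon; bars are means of 2 libraries and points the replicates. The Mbnl1 exons of 95, 54 and 36 nt step down, and the Ptbp3 exon has the widest gap between replicates.

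With counts scaled by TMM, a method that aligns the bulk of genes, 41 members had a mean count of at least 50. None of the 41 was 1.5-fold higher or lower in replicate 2, against 1.33% of protein-coding genes that were higher and 1.53% that were lower, so a count of 0 is near the background. With scaling to spike-ins, all 41 were 1.5-fold apart. The log2 ratios of replicate 2 over replicate 1 ran from −0.26 for Nova2 to 0.25 for Khdrbs3, with a median of −0.01. Ptbp1, at −0.25, was the lowest of the abundant members. With TMM scaling, 18 of the 41 members were higher in replicate 2, against 6200 of 12804 protein-coding genes. By TPM, the median log2 ratio over protein-coding genes was 0.14, a general shift that scaling to spike-ins widens to 1.28.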

How the data were processed

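Total RNA of E13.5 heart was sequenced in 2 libraries; per the labels, input was 10 ng, RNA above 200 nt was kept and spike-in RNA was added. Per the deposited file descriptions, the authors estimated an expected count per gene and transcript from transcriptome alignments on mm10 with annotation M4. The authors' deposited TPM values are relative to all features, spike-ins included, and come with credibility bounds whose level is not stated. The deposited percent columns give each transcript's share of its gene's TPM. The sources used here do not give the aligner or quantifier. Shared reads are divided by estimation: 15 members had counts that were not whole (tolerance 0.01).

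Gene and transcript identifiers, versions removed, were looked up in GENCODE M21, whose transcript classes were used; 42462 of 43346 genes matched, and 34 member transcripts had another length there than in the files. The 96 spike-ins and 26248 numbered features were kept out of gene comparisons. Expected counts were rounded for replicate ratios, with TMM factors from edgeR 4.0.16 (DESeq2 1.42.0 size factors as an alternative) and 0.5 added. A single group of 2 libraries allows no test between groups, so no p-value is given. Steps used R 4.3.3, Python 3.11.15, pandas 2.3.3 and matplotlib 3.10.9, and were tested on simulated data.

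Members, classes, lists and pairs were chosen with earlier results of these data known. All 44 members are named, with the 3 highest and the lowest of each other group, of which some are not reported here; the transcripts of Srsf6 and Srsf1 whose exons are printed, shared stop codons, poison exons of other members and the alternative exons were chosen after values were seen. Poison exons were to be printed for the 6 members with the highest NMD share, of which Srsf11 alone had an exon that overlaps no coding exon; all 34 NMD transcripts were then searched. Alternatives covered thresholds, scaling, posterior means, transcript classes and each replicate left out.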

Additional observations from a re-analysis of the deposited data

How the results depend on the processing

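The number of detected members (38) ran from 35 to 40 over minimum levels, posterior means and either replicate left out, and the number of pairs called apart (21) from 14 under a 2-fold rule to 24. With TPM recomputed over protein-coding genes without spike-ins and globins, the median was 39.2 for muscle and 185 for general regulators. Counting only shares over 80%, 5 members were led by the same transcript, a level not counted over all genes. The median non-coding share of members was 17.1% with a minimum gene level of 10 TPM, 1.52% for retained introns alone, 0.082% for the NMD class alone, 8.58% of estimated reads, and 11.8% with only transcripts of equal length in both annotations, a setting chosen after seeing the data; leaving out a replicate gave 11.9% to 14.8%. At least 50% non-coding was found in 4 members, a level not counted over all genes. At least 20% of reads was found in 9 members (27.3%), against 15.5% of the protein-coding genes. With equal lengths only, 11 of 33 members passed 20%, against 2354 of 9054 protein-coding genes. Spike-in scaling put all 41 members past 1.5-fold, in the direction of the shift of all genes. In each case the cause was not tested. No paired analysis was possible because there was only 1 group. Replicates show the spread between these 2 pools, and the credibility bounds cover estimation error only, as PCR copies of a molecule cannot be told from separate molecules.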
